A study of Mus musculus with 5 samples.

Results

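PU.1 sites next to the ends of noncoding genes were examined in p53-/- mouse leukaemia cells after acute restoration of PU.1. A site was counted when its summit lay on chromosomes 1 to 19, within 1 kb of the start or end coordinate of a gene that RefSeq (GRCm38.p6) does not class as protein-coding, and more than 1 kb from every end of a protein-coding gene. Of 11111 sites in the list, 10920 lay on chromosomes 1 to 19, and 544 of these met the rule (4.98%, 95% interval 4.59 to 5.41). Of the remaining sites, 1248 lay within 1 kb of a protein-coding gene end and 9128 lay more than 1 kb from every gene end. Of the 1248, 132 were also within 1 kb of a noncoding gene end and were left out by the rule. Position alone chose the members, and no score entered the choice.

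Chromatin immunoprecipitation followed by sequencing (ChIP-seq) was carried out with the PU.1 antibody T-21 on AML-246 cells, 1 acute myeloid leukaemia of the C57BL/6 strain grown in recipient mice and taken from their spleens. All samples lacked p53 (p53-/-) and carried a GFP-linked short hairpin RNA against PU.1. In the PU.1 low group (2 libraries) the mice were untreated and the hairpin was active, and in the PU.1 high group (3 libraries) the mice had received doxycycline (Dox) for 2 days, which shuts the hairpin down so that the endogenous protein is made again. Within a group the libraries are technical replicates by their labels and may come from 1 mouse, and every value below belongs to 1 leukaemia. The deposited data are 1 list of summits, each with a −log10 score, and the name of the list sets high against low. It is therefore read here as sites with more PU.1 signal after Dox than before. It holds no value per library, so neither depth nor spread between libraries is known, and no difference between treated and untreated mice could be tested. Intervals below are Wilson for shares, exact Poisson for site and motif densities and order-statistic for medians. Those of density ratios are exact binomial intervals turned into ratios. All are at 95% and cover counting error only.

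PU.1, the product of Spi1, belongs to the ETS transcription factors, is required for the myeloid and B lineages, and binds purine-rich DNA around the ETS core GGAA. Long noncoding RNAs (lncRNAs) are transcribed by RNA polymerase II from promoters of their own, and many start at or near enhancers. MicroRNAs (miRNAs) are cut from longer primary transcripts, pseudogenes are decayed copies of other genes and often lack a promoter, and transfer RNAs and several other small RNAs are made by RNA polymerase III.

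The miRNAs are shown first because their mature sequence is the product of the gene next to the site. There were 12 sites near 15 miRNA genes, and RefSeq gave 23 mature sequences for 13 of these genes. The capitals mark the seed, bases 2 to 8, with which a miRNA recognises its targets. All 23 seeds were different. The first 8 sequences come from the Mir23a, Mir27a, Mir24-2 and Mir3074-2 genes of chromosome 8, which share 1 site, and the next pair from the miRNA gene of the highest-scoring site, Gm24195 on chromosome 13. The last pair comes from Mir7671 on chromosome 11, where the summit fell inside the miRNA gene.
mmu-miR-23a-5p: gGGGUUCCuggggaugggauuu
mmu-miR-23a-3p: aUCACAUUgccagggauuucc
mmu-miR-27a-5p: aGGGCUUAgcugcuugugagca
mmu-miR-27a-3p: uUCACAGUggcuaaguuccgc
mmu-miR-24-2-5p: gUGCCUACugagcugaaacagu
mmu-miR-24-3p: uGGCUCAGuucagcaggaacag
mmu-miR-3074-2-3p: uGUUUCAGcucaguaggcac
mmu-miR-3074-5p: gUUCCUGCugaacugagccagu
mmu-miR-1271-5p: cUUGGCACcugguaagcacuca
mmu-miR-1271-3p: aGUGCCUAcugugugccaagaca
mmu-miR-7671-5p: aGGCUCCGcucuggcuagcuucc
mmu-miR-7671-3p: aAGCGGGCaggcggagaaccac

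For lncRNAs the DNA under the summit is shown. RefSeq promoter windows (GRCm38.p6, 300 bases, from 250 before to 50 after a transcript start) held the summit of 60 of the 544 sites (11%). The nearest noncoding gene of 317 sites (58.3%) had a window in the table. Stretches of up to 121 bases around the summit are printed on the strand of the gene, cut where the window ends, with the summit at base 61. Capitals mark the PU.1 core GAGGAA and the ETS sequence GGAAGT on either strand, so that TTCCTC and ACTTCC are the same motifs read on the other strand, and an overlap of both reads GAGGAAGT. The first 4 belong to sites with a high score, to genes of the lists below or to a gene with a pair of sites, and show how much these windows differ: the core at Gm43380, GGAAGT at Snhg20 and Dleu2, and neither at the weaker site of Gm34267.
Gm43380: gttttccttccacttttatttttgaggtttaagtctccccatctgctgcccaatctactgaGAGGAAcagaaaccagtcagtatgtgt
Snhg20: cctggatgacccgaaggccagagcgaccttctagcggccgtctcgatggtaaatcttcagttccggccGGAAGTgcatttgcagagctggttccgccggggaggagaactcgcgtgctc
Dleu2: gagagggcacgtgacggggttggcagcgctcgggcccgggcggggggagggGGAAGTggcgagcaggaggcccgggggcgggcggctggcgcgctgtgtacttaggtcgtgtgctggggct
Gm34267: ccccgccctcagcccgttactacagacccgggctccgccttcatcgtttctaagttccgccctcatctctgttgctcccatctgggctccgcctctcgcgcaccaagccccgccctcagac
They cover chr5:143038953-143039040 (plus strand, Gm43380), chr11:117076714-117076832 (plus strand, Snhg20), chr14:61682438-61682558 (minus strand, Dleu2) and chr10:22058712-22058832 (minus strand, Gm34267). The next 6 were chosen after the sequences had been seen, because their core is centred at most 2.5 bases from the summit.
Gm39792: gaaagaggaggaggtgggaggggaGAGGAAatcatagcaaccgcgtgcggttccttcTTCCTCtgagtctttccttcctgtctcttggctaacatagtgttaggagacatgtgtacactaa
D130017N08Rik: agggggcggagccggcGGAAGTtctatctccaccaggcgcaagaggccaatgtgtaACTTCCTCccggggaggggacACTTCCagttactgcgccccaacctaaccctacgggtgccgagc
1700007J10Rik: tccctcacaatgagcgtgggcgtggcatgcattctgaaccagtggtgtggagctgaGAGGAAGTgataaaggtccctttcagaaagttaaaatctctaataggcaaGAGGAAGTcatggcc
6530402F18Rik: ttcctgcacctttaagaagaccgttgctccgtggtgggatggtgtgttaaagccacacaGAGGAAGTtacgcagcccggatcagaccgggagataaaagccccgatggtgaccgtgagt
Gm35891: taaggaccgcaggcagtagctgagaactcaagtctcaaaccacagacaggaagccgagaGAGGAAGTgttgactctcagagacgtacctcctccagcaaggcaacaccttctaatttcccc
Gm46838: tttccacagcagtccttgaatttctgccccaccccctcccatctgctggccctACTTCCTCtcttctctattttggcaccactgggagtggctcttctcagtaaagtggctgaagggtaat
They cover chr2:33908427-33908547 (minus strand, Gm39792), chr5:143758171-143758291 (plus strand, D130017N08Rik), chr11:59740108-59740228 (minus strand, 1700007J10Rik), chr2:29252944-29253062 (minus strand, 6530402F18Rik), chr3:51128923-51129043 (minus strand, Gm35891) and chr3:105825833-105825953 (minus strand, Gm46838). In 5 of these 6 windows the motif under the summit is the long form GAGGAAGT, and at Gm39792 it is GAGGAA alone. Their scores ran from 3.08 at 1700007J10Rik to 15.7 at 6530402F18Rik, so a centred core was found at weak and at strong sites. The last pair, also chosen after the sequences had been seen, has GGAAGT next to the summit and no GAGGAA anywhere in the window.
Gm39091: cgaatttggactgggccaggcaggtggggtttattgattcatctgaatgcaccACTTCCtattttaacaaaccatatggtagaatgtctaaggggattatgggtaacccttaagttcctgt
Gm32287: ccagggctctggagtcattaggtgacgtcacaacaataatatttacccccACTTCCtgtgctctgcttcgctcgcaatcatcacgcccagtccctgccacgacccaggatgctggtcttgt
They cover chr7:128184097-128184217 (minus strand, Gm39091), inside Itgad, which encodes an integrin subunit of leukocytes, and chr2:167777951-167778071 (minus strand, Gm32287), whose nearest protein-coding gene end, 87.6 kb away, is that of Cebpb, a transcription factor gene of myeloid cells.

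The 544 sites had scores from 1.77 to 31.8 with a median of 8.64 (8.31 to 8.86) and quartiles of 5.78 and 12.0. All 10920 sites had a median of 8.56, sites away from every gene end 8.64 and sites at protein-coding gene ends 7.70 (7.51 to 8.19). A score of at least 10 was reached by 204 of the 544 sites (37.5%, 33.5 to 41.6), against a background of 37.5% of all sites. A score of at least 20 was reached by 19 (3.49%, 2.25 to 5.39), against a background of 3.93%. Both shares were near the background, so the scores do not set these sites apart. A score is the caller's confidence in a site, which grows with depth, and it is no fold change of binding.

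**Figure D1:**
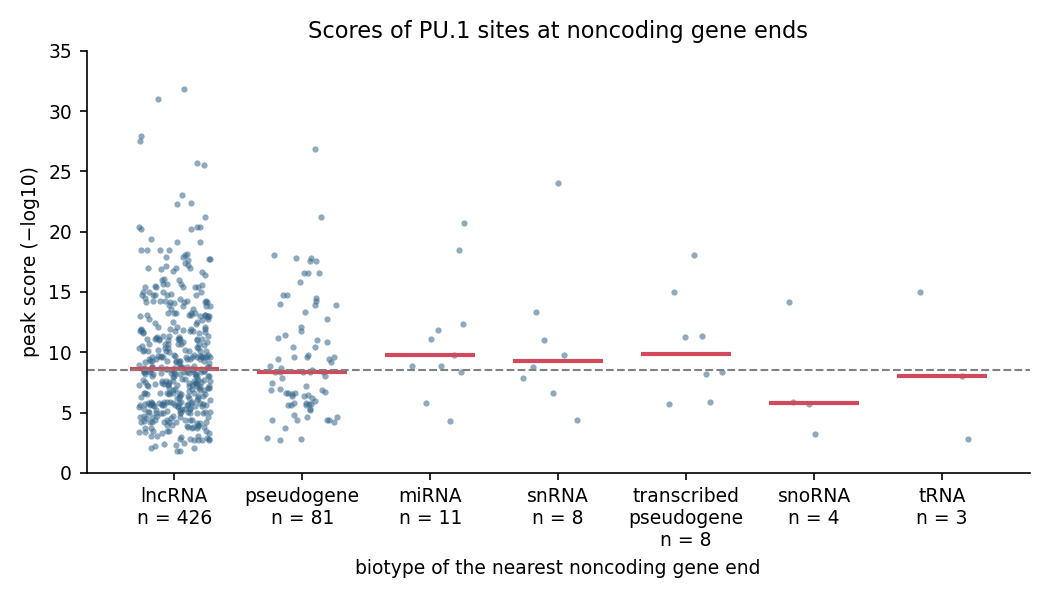
Score (−log10, vertical axis) of each site by the biotype of its nearest noncoding gene end, with 1 point per site, spread sideways only for legibility, a red bar at each median and a dashed line at the median of all 10920 sites (8.56). The 3 biotypes with 1 site each are not drawn, and the medians of lncRNA (8.64) and pseudogene sites (8.36) lie next to the dashed line.

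By biotype, 426 sites lay at lncRNA genes (78.3%, 74.7 to 81.6) and 81 at pseudogenes (14.9%, 12.1 to 18.1). Another 11 had a miRNA gene as nearest end (2.02%), 8 a small nuclear RNA (snRNA) gene, 8 a transcribed pseudogene, 4 a small nucleolar RNA (snoRNA) gene and 3 a transfer RNA gene. A J segment (Ighj4), a V segment (Trbv24) and a miscellaneous RNA (Vis1) had 1 site each. Median scores were 8.64 at lncRNAs, 8.36 at pseudogenes, 9.75 at miRNAs, 9.26 at snRNAs, 9.82 at transcribed pseudogenes and 8.01 at transfer RNAs. Among biotypes with more than 1 site the lowest was that of the 4 snoRNA sites, 5.82. Their scores ranged from 3.24 to 14.2, which spans all the other medians. Most of the genes are gene models without a functional name: 439 sites (80.7%) were nearest to a Gm or LOC number and 63 (11.6%) to a Rik clone, and 42 (7.72%) to a gene with another kind of name.

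Among the 10 highest-scoring sites, 8 were nearest to a lncRNA, and 8 also lay inside a protein-coding gene. The top site, at Gm41842 (chromosome 19, 37546939, 625 bp beyond the gene, score 31.8), lay inside Exoc6, which encodes a subunit of the exocyst. The next, at Gm43380 (chromosome 5, 143039013, score 31.0), stood 22 bp inside the 5′ end of the lncRNA and inside Rnf216, a ubiquitin ligase gene transcribed from the other strand, 48.1 kb from the nearest protein-coding gene end. This is the summit whose window, printed first above, has the core GAGGAA directly after it. The site at 1700071M16Rik (28, 346 bp) lay inside Pla2g7, which encodes an enzyme that breaks down platelet-activating factor.

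Gm34267 (27.5, 906 bp), the pseudogene Gm29696 (26.9, 311 bp, inside Ptrhd1) and C330016L05Rik (25.7, 641 bp) came next. They were followed by 4921511C10Rik (25.5, 564 bp, inside Rapgef2, an activator of Rap GTPases), the snRNA gene Gm26049 (24.0, 697 bp, inside Dcaf12), A330040F15Rik (23.0, 360 bp, inside Fam111a) and Gm38487 (22.4, 739 bp, inside Stxbp6). Of these 10 summits, only that of Gm43380 lay within 100 bp of the noncoding gene end. Over all 544 sites, 13 of the 190 inside a protein-coding gene scored at least 20 (6.84%, 4.04 to 11.4), against 6 of the 354 outside (1.69%, 0.779 to 3.65). Among all 10920 sites the same shares were 3.93% inside and 3.93% outside. This split was made after the top sites had been seen, and it was not tested.

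No noncoding gene had more than 2 member sites, and 20 had 2. The 5 of these with the highest score were 1700071M16Rik (28 and 8.78), Gm34267 (27.5 and 9.59), Gm29696 (26.9 and 4.34), 4921511C10Rik (25.5 and 7.29) and Gm42266 (20.2 and 6.22). In each of these 5, picked by their highest score, 1 strong site was paired with a much weaker one. Some of the other pairs were closer, such as Gm12754 (12.7 and 11.8) and Gm40315 (11.1 and 10.1). At Gm34267 the weaker summit was the closer to the gene, 118 bp from the 5′ end against 906 bp. Gm42266 lies between genes, with the end of Bach2, a transcriptional repressor gene of lymphocytes, 51.0 kb from the weaker site and 77.4 kb from the stronger.

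Counted per gene, 545 of 26377 noncoding genes had a member site (2.07%, 1.90 to 2.24). The share was 3.40% of lncRNA genes (422 of 12408, 3.10 to 3.73), 1.84% of transcribed pseudogenes (8 of 435, 0.935 to 3.59), 1.32% of miRNA genes (15 of 1136, 0.802 to 2.17) and 1.02% of transfer RNA genes (4 of 391, 0.399 to 2.60). Pseudogenes reached 0.912% (81 of 8884, 0.734 to 1.13), snRNA genes 0.859% (8 of 931, 0.436 to 1.69) and snoRNA genes 0.311% (4 of 1286, 0.121 to 0.797). The lncRNA interval lay above those of pseudogenes, miRNA, snRNA, snoRNA and transfer RNA genes and overlapped that of transcribed pseudogenes. Of protein-coding genes, 1363 of 20661 (6.60%) had a site within 1 kb, a share that includes sites near both kinds of gene. Site density in the wider surroundings also differs between biotypes, as the densities around isolated ends below show, and its part in these shares was not tested. In short genes the 1 kb windows of both ends overlap, so less sequence was searched per gene. The part of gene length in these shares was not tested either.

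**Figure D2:**
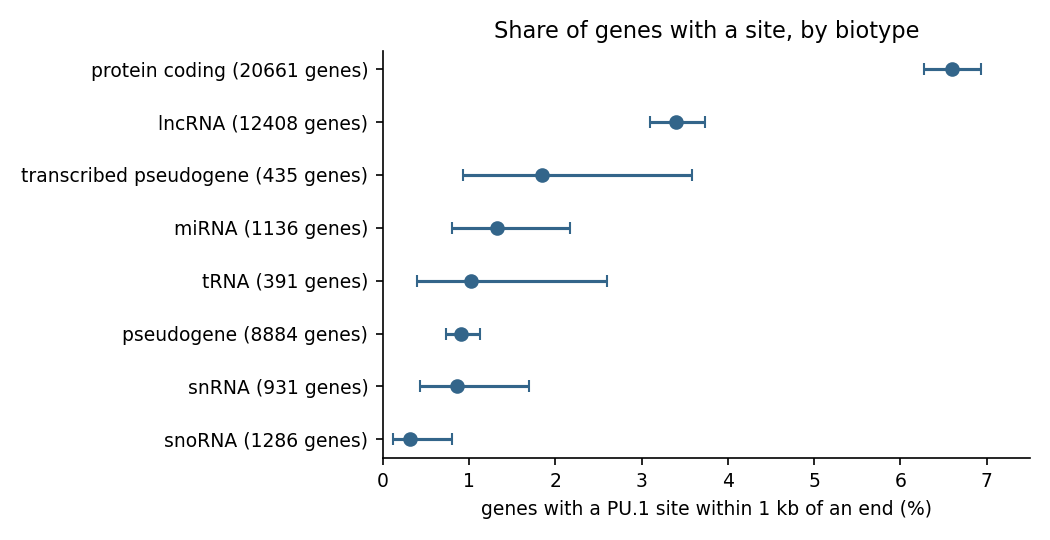
Share of genes (%, horizontal axis) of the 7 noncoding biotypes with more than 1 member site and of protein-coding genes with a PU.1 site within 1 kb of an end, with 95% Wilson intervals, where noncoding biotypes count member sites and the protein-coding share counts any site. Among the noncoding biotypes drawn the shares run from 0.311% of snoRNA genes to 3.40% of lncRNA genes, below the 6.60% of protein-coding genes. The shares are not adjusted for gene length.

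Sites at lncRNAs were more often nearer the 5′ end, and the share was highest close to it. The strand was known, from the promoter table, for the gene of 317 of the 426 lncRNA sites. Of these, 194 were nearer the 5′ end (61.2%, 55.7 to 66.4). Within 100 bp of the end the share was 46 of 56 (82.1%, 70.2 to 90.0), from 100 to 500 bp it was 67 of 118 (56.8%, 47.8 to 65.4) and from 500 bp to 1 kb it was 81 of 143 (56.6%, 48.5 to 64.5). Each of the farther classes had an interval that included an even split of 5′ and 3′ ends, but from 100 bp to 1 kb together 148 of 261 were nearer the 5′ end (56.7%, 50.6 to 62.6), just above an even split. The 46 sites within 100 bp of a 5′ end had a median score of 9.43 (7.29 to 11.8), and the 10 within 100 bp of a 3′ end had 7.79 (2.77 to 10.4), intervals that overlap.

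Site density around gene ends was also highest next to the 5′ end. To keep protein-coding promoters out, ends with no protein-coding gene end within 11 kb were taken. Around 6034 such lncRNA 5′ ends, the density was 30.7 sites per kb per 1000 ends within 100 bp (37 sites, 21.6 to 42.3). It was 10.2 from 100 to 500 bp (7.51 to 13.4), 8.78 from 0.5 to 1 kb (6.58 to 11.5), 6.88 from 1 to 2 kb, 7.18 from 2 to 5 kb and 6.28 from 5 to 10 kb (5.66 to 6.95). The density within 100 bp was thus 4.88 times that from 5 to 10 kb (3.38 to 6.85). From 100 to 500 bp the interval still lay above that of the 5 to 10 kb surroundings, and from 0.5 to 1 kb it overlapped it. In these densities a site was counted once for each end within reach, so 1 site can enter more than once. The intervals treat all counts as separate sites and may be too narrow. Within 100 bp all counted sites were different, here and at the ends below.

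At 6336 lncRNA 3′ ends the densities were 4.73 within 100 bp and 6.98 from 5 to 10 kb, a ratio of 0.679 (0.248 to 1.49) from 6 sites. At 12982 pseudogene ends, with both ends of a gene taken, they were 1.93 and 3.24, a ratio of 0.595 (0.192 to 1.40) from 5 sites. Neither ratio differed from 1 beyond its counting interval. Pseudogenes also stood in surroundings with fewer sites than lncRNAs at every distance drawn. Protein-coding 5′ ends were taken as isolated when no other protein-coding gene end, including that of the same gene, lay within 11 kb. This leaves out protein-coding genes shorter than 11 kb, a limit that lncRNA genes did not have. At 6125 such ends the density was 100 within 100 bp, and the ratio was 11.2 (9.12 to 13.6). For miRNA, snRNA, snoRNA and transfer RNA genes, 1 site in all lay within 100 bp of an isolated lower-coordinate end, so the numbers give no profile.

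**Figure D3:**
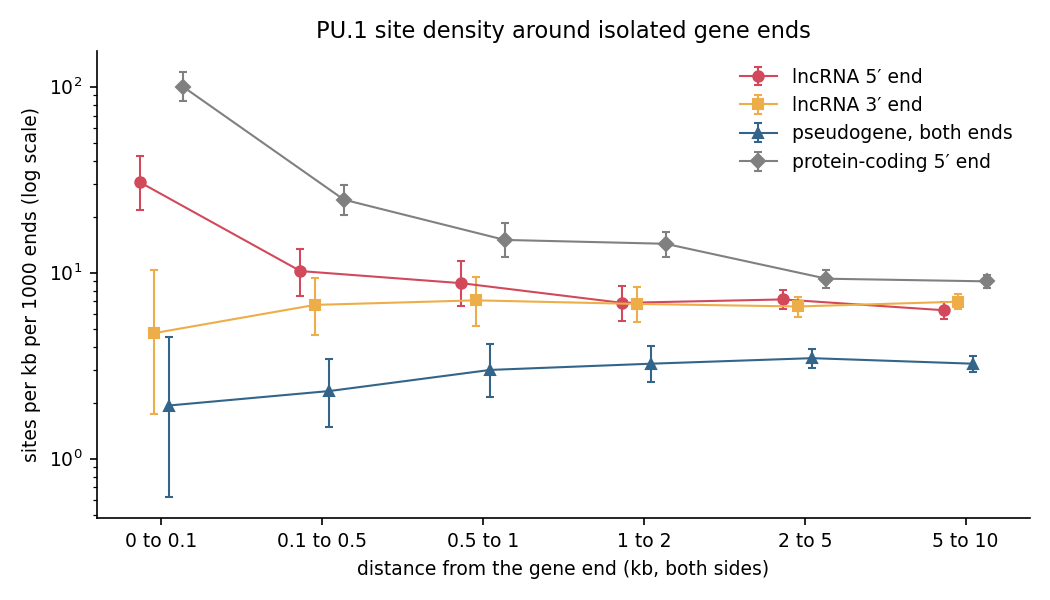
PU.1 sites per kb per 1000 gene ends (vertical axis, log scale) by distance from the end (kb, both sides counted) for isolated ends, with exact 95% Poisson intervals. A site counts once for each end within reach. The lncRNA 5′ curve falls from 30.7 within 100 bp to 6.28 from 5 to 10 kb, the protein-coding 5′ curve lies above it throughout, and the lncRNA 3′ and pseudogene curves show no peak at the end.

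Of the 544 sites, 94 lay within 100 bp of the noncoding gene end (17.3%), and 212 (39.0%) lay inside the noncoding gene. A protein-coding gene contained 190 sites (34.9%, 31.0 to 39.0), against 53.4% of the sites away from every gene end and 26.5% of the noncoding gene ends that could have held a member. At lncRNA sites inside a protein-coding gene of known strand, the 2 genes were on opposite strands for 81 of 92 sites (88.0%, 79.8 to 93.2). For those nearer a 5′ end the share was 51 of 58 (87.9%, 77.1 to 94.0). It was 90.1% of all lncRNA genes whose 5′ end lay inside such a gene and more than 1 kb from protein-coding gene ends. The arrangement was therefore that of lncRNAs in general. Another site lay within 10 kb of 181 members (33.3%), against 33.4% of all sites. The nearest protein-coding gene end was a median of 21.3 kb away, against 19.6 kb for sites away from every gene end. It was 1 to 5 kb away for 92 members, 5 to 10 kb for 80, 10 to 50 kb for 230 and over 50 kb for 142. In both measures the values of the members lay close to those of the list as a whole or of its distal sites.

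The 60 windows with a summit carried PU.1 motifs at higher shares than other noncoding windows. All 60 are windows of lncRNA genes, so these shares do not describe sites at other noncoding biotypes. Motifs were searched on both strands, and no test was made of these shares. The PU.1 core GAGGAA stood in 33 of 60 (55%, 42.5 to 66.9), against 29.8% of 11211 noncoding windows without a site and 28.2% of all 31396 windows. Its long form GAGGAAGT stood in 11 (18.3%, 10.6 to 29.9), against 3.26% and 3.25%. GGAA alone stood in all 60, but also in 96.3% of windows without a site, so it separates nothing at this length.

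GGAAGT, added after the sequences had been seen, stood in 41 of 60 windows (68.3%, 55.8 to 78.7), against 21.6% of noncoding windows without a site and 23.9% of all windows. Either GAGGAA or GGAAGT stood in 51 of 60 (85%, 73.9 to 91.9), against 42.9% and 43.4%. GGAANNGAA, the composite element that PU.1 and interferon regulatory factors bind together, stood in 16 (26.7%, 17.1 to 39.0), against 8.95% and 8.13%. GGAA lies within each of these motifs and GAGGAAGT holds both GAGGAA and GGAAGT, so the counts are not independent of each other.

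Among motifs of other factors, the RUNX sequence TGTGGT stood in 20 windows (33.3%, 22.7 to 45.9), against 20.1% of noncoding windows without a site and 16.7% of all windows. The E-box CACGTG stood in 10 (16.7%, 9.31 to 28), against 5.74% and 7.14%. The AP-1 motif TGANTCA (11.7%) and the C/EBP motif TTGCNNAA (11.7%) were close to their shares in windows without a site, 9.26% and 12.0%. The CRE motif TGACGTCA stood in 2 windows (3.33%), against 0.981%. The GC box GGGCGG stood in 5 windows (8.33%, 3.61 to 18.1), against 16.3% of noncoding windows without a site, 36% of all windows and 56.4% of the 411 protein-coding windows with a summit. Median GC content was 49.3% in the 60 windows, 48.3% in noncoding windows without a site and 58.3% in the 411 protein-coding windows. The shares of GGAAGT (63.0%) and of GAGGAA (48.7%, 43.9 to 53.5) in those 411 windows lay within the intervals of the 60. Those of GAGGAAGT (9.49%), the composite GGAANNGAA (14.6%), the RUNX sequence (16.5%) and, just, the E-box (9.25%) lay below the intervals of the 60. These differences were not tested. In protein-coding windows without a site the same 4 shares were 3.0%, 7.4%, 14.7% and 7.85%, so the backgrounds of the 2 kinds of window differ as well. A match is a description of the letters in the window and does not show which factor bound there.

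**Figure D4:**
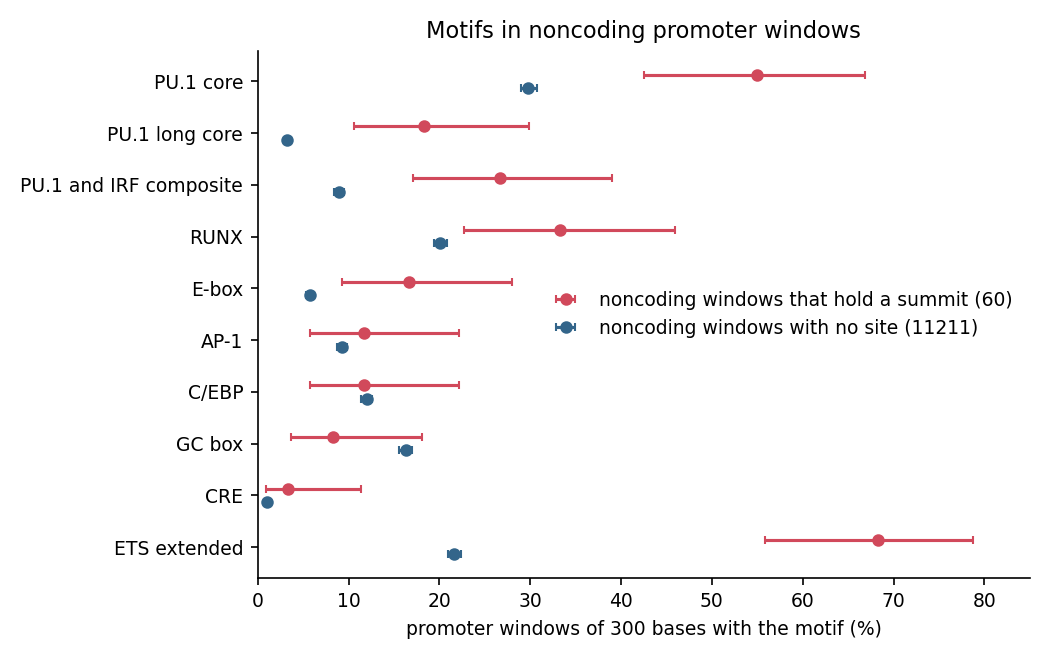
Share of 300-base noncoding promoter windows with each motif (%, horizontal axis) for the 60 windows that hold a summit (red) and the 11211 with no site (blue), with 95% Wilson intervals. All 60 are windows of lncRNA genes. The PU.1 core (55% against 29.8%), its long form (18.3% against 3.26%), the composite motif (26.7% against 8.95%) and ETS extended, which is GGAAGT (68.3% against 21.6%), lie apart, as do RUNX and the E-box, while the AP-1, C/EBP, GC box and CRE intervals hold the blue value.

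The core was not spread evenly over these windows. Within 25 bases of the summit there were 7.87 cores per 1000 positions (4.99 to 11.8), from 25 to 50 bases 2.96, from 50 to 100 bases 1.69 and from 100 to 300 bases 0.681 (0.221 to 1.59). A core lay within 25 bases of 22 of the 60 summits (36.7%), as in the 6 windows printed for their centred core. The median distance of the nearest core was 13.5 bases in the 33 windows that had one. Either GAGGAA or GGAAGT lay within 25 bases of 40 summits (66.7%, 54.1 to 77.3) and within 50 bases of 47 (78.3%). In the 411 protein-coding windows the core density fell in the same order of distances from 6.23 within 25 bases to 1.0 from 50 to 100 bases, and was 1.31 beyond. A core in the window went with no clear difference in score: the median was 9.77 in the 33 windows with a core and 9.60 in the 27 without.

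**Figure D5:**
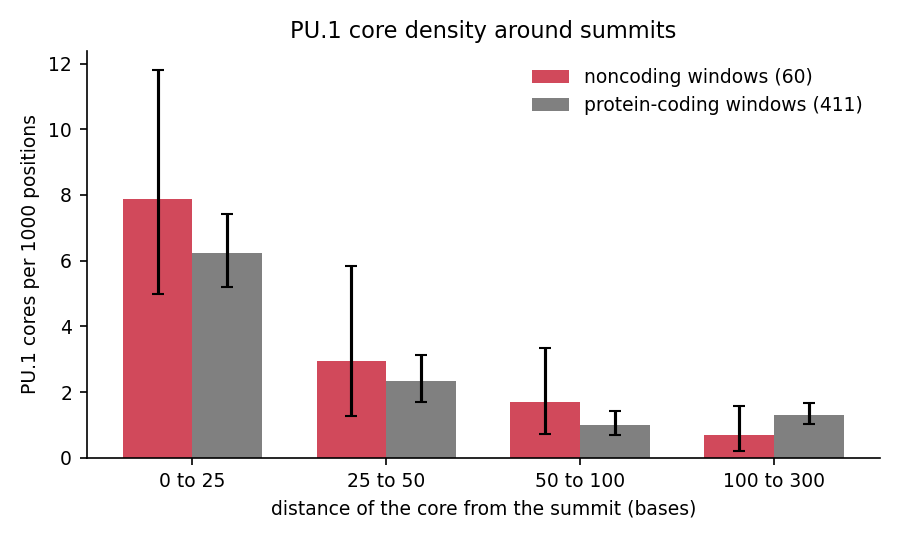
Density of the PU.1 core GAGGAA (matches on either strand per 1000 positions, vertical axis from 0) by distance from the summit (bases) in the 60 noncoding (all lncRNA) and 411 protein-coding windows that hold a summit, with exact 95% Poisson intervals. Both sets are highest within 25 bases, at 7.87 and 6.23.

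A list of 52 named long noncoding and structural RNA genes of blood cells, stress and growth held 48 noncoding genes on chromosomes 1 to 19. Of these, 2 had a member site (4.17%), against 2.07% of all noncoding genes. Most genes of the list are lncRNAs, and 3.40% of all lncRNA genes had a member site (3.10 to 3.73). At Snhg20, a snoRNA host gene, the summit stood 9 bp before the 5′ end (chromosome 11, 117076774, score 11.8). The window printed above has GGAAGT close to that summit and no GAGGAA. The same site lay 574 bp from Mir6516. At Dleu2, the host transcript of the miR-15a and miR-16-1 genes that is deleted in human lymphocytic leukaemia, the summit stood 125 bp before the 5′ end and scored only 3.33, among the lowest of the list. Its window has GGAAGT near the summit and a GAGGAA centred 169.5 bases away, outside the printed stretch.

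Other members of that list had sites at a distance. A site lay within 10 kb of 13 of the 48 (27.1%), against 12.6% of all noncoding genes. Named genes of blood cells, stress and growth need not be a fair sample of noncoding genes. The share within 10 kb was not counted for lncRNA genes alone. Neat1 had a site at 1.26 kb with a score of 1.46, close to the lowest of the list. Malat1 had 4 sites within 10 kb, the nearest at 4.31 kb with a score of 5.97, and Pvt1, next to the Myc gene, had 1 at 8.51 kb with a score of 10.8. Rmrp, the RNA of RNase MRP, had 2 sites within 1 kb, but both summits lay within 1 kb of a protein-coding gene end, so the rule left them out. The gene itself stands 0.281 kb from such an end.

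Among 53 myeloid and lymphoid miRNA genes and hosts on chromosomes 1 to 19, 4 had a member site (7.55%) from 2 sites, and 10 had any site within 10 kb (18.9%). The same shares were 2.07% and 12.6% of all noncoding genes, and 1.32% of all miRNA genes had a member site. Neighbouring genes among the 10 share sites as well, such as Mir22 and its host gene. The share within 10 kb was not counted for miRNA genes alone. The first of the 2 member sites was that of Mir23a, Mir24-2 and Mir27a (chromosome 8, 84207982, score 12.3). It lay 536 bp before Mir23a on the plus strand, 690 bp from Mir27a and 833 bp from Mir24-2. Their miRNAs, printed above, are cut from 1 primary transcript, and the cluster has been described as a PU.1 target in blood progenitors. The Mir3074-2 gene overlaps Mir24-2 on the other strand, 843 bp from the summit. The other site, of low score (4.33), lay 350 bp before the 5′ end of Mir22hg, the host gene of miR-22.

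At other miRNA genes of myeloid biology no site met the rule. Mir342 had a site at 1.10 kb (8.98), just outside the 1 kb limit, Mir146b at 3.38 kb (7.29), Mir146 at 5.85 kb (16.6) and Mir21a at 6.65 kb (5.30). Mir223 on chromosome X, Mir155 and Mir142, all with roles in blood cells, had none within 10 kb, the nearest being 15.6, 120.8 and 44.3 kb away. A miRNA gene entry covers the hairpin and not the promoter of the primary transcript, which can lie many kb upstream, so a distance to the entry says little about promoter binding.

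The remaining miRNA sites were mostly inside protein-coding genes: 8 of the 11 sites with a miRNA gene as nearest end lay inside one (72.7%), against 67.8% of the miRNA gene ends that could have held a member. The highest was at Gm24195, the gene of miR-1271 (chromosome 13, 54578301, 80 bp, score 20.8), inside Arl10. Mir6539 followed (18.5, 48 bp from its upper end, inside Dock5), with the summit in the miRNA gene itself. Then came Mir1927 (11.8, 948 bp, inside Rabgap1l), Mir7115 (11.1, 604 bp, inside Arrb2, a beta-arrestin gene) and Mir6904 (9.75, 704 bp, inside Parp1, a DNA damage sensor). Mir6541 (8.86, 18 bp, inside Wdfy2), Mir5124a (8.85, 285 bp, inside Gcnt2) and Mir6915 (8.35, 849 bp, inside Ankrd52) lay near the median of all sites. The lowest were Mir7671 (5.82), whose nearest protein-coding gene end is that of the interferon regulatory factor gene Irf1 at 6.39 kb, and Mir6367 (4.29, 197 bp), nearest to the interferon receptor gene Ifnar1 at 16.7 kb.

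At pseudogenes the highest score after Gm29696 was 21.2, at Gm13691 (591 bp, outside protein-coding genes). Gm6046 (18.1, inside Rilpl1), Gm17970 (17.8, inside Il1rl2, a receptor gene of the interleukin-1 family) and Gm3617 (17.8, inside Npas2, a clock gene) followed. Of the 81 pseudogene sites, 10 lay inside the pseudogene (12.3%, 6.85 to 21.3), against 199 of 426 lncRNA sites inside the lncRNA gene (46.7%, 42.0 to 51.5). The nearest gene was shorter than 1 kb, the width of the window, at 50 of the 81 pseudogene sites (61.7%) and at 5 of the 426 lncRNA sites (1.17%), and the part of gene length in this difference was not tested. Within 100 bp of the end lay 9 pseudogene sites (11.1%, 5.96 to 19.8) and 77 lncRNA sites (18.1%, 14.7 to 22.0), with intervals that overlap. Transcribed pseudogenes were led by Gm11346 (18.1, inside Ripor2), Gm12551 (15.0, inside Plin2, a lipid droplet gene), Nlrp1c-ps (11.3, 103 bp), a relative of the inflammasome gene Nlrp1b, and Gm13351 (11.2, inside Mllt10, a fusion partner in human leukaemia). Sequence shared with parent genes or with other copies can place reads at the wrong copy (the handling of such reads: not given in the sources used here).

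Small RNA genes of repeated families have the same limit. Among snRNA genes, Gm26049 (24.0) was followed by LOC115490527 (13.4, 599 bp, inside Thumpd3), Gm22747 (11, 629 bp) and Gm25081 (9.75, 847 bp). None of the 8 snRNA sites and none of the 4 snoRNA sites lay within 100 bp of the gene, which leaves upper limits of 32.4% and 49.0% for these shares. The snoRNA sites were those of LOC115488222 (14.2, 554 bp, with Klf6 135.3 kb away as nearest coding gene), Gm23126 (5.91, 438 bp), Gm25346 (5.72, 669 bp) and Gm23220 (3.24, 122 bp). The transfer RNA sites were those of n-TScga3 (15.0, 341 bp, also near n-TTagt5 and 1.38 kb from the clock gene Per1), n-TRacg3 (8.01, 775 bp) and n-TRtcg5 (2.82, 86 bp). Of the single-site biotypes, Ighj4, a joining segment of the antibody heavy chain locus, scored 8.85 at 963 bp, and Trbv24, a T cell receptor segment, 5.78 at 81 bp. Vis1 (8.0, 107 bp) has as its nearest coding gene Zeb2, a transcription factor gene of myeloid cells, 121.4 kb away.

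The 1 kb limit cut through a continuous range of distances. Just inside it were E330017L17Rik (999 bp, score 8.18), Gm36518 (999 bp, 16.1), Gm18413 (998 bp, 13.9) and Gm3617 (997 bp, 17.8). Just outside were Gm40080 (1001 bp, 7.21), Gm46728 (1001 bp, 9.16), A530076I17Rik (1003 bp, 11.2) and Gm20717 (1013 bp, 8.36). At the limit to protein-coding gene ends, Gm40481 (1012 bp from Gpatch2l, score 7.57) was kept, and a site of Rmrp (980 bp from Ccdc107, 13) was not.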

How the data were processed

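The deposited file is a list of peak summits whose score is on a −log10 scale, as the authors' peak caller wrote it, with no statement of whether p or q was used. The lowest score was 1.32, just above 1.3, the −log10 of 0.05. The submitters' processing notes name CASAVA 1.8.2, MACS2 and the mm10 build. Not given in the sources used here were the MACS2 settings, the aligner, the read filters, the handling of reads with several matches and the way the 5 libraries entered the calls. Direction was taken from the name of the list.

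Summit positions were made 1-based. Distances ran to the start and end coordinates of genes of the RefSeq GRCm38.p6 table, which shares its chromosome coordinates with mm10 and gives no strand. Strand came from the RefSeq promoter and miRNA tables. Sites were assigned by distance alone, with the nearest noncoding end giving the biotype. All counts used python 3.11.15, numpy 2.4.6, pandas 2.3.3 and scipy 1.17.1, and the assignment and motif searches were tested on simulated data. No genome was used here, so sequence was read only in promoter windows.

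The genes named are the 10 highest-scoring members, the 4 highest of each biotype, members at miRNA genes and at genes of the 2 lists, the 4 nearest inside and outside the 1 kb limit, and the 5 genes with most member sites. Others were named after their values were seen, as were list genes with sites only beyond 1 kb. The members and lists were chosen with earlier results of these data known. Densities around ends, motif distances and GGAAGT were added after the data were seen. No test between groups was possible with 1 list.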

Additional observations from a re-analysis of the deposited data

Results flagged for a closer look

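The rule covered chromosomes 1 to 19, and chromosome X stood outside it. On chromosome X, 4 of 186 sites met the same distances (2.15%, 95% interval 0.839 to 5.40), against 4.98% on chromosomes 1 to 19 (4.59 to 5.41). Their scores had a median of 8.23. They were Gm14869 (11.9, 589 bp), Gm17861 (10.8, 22 bp), the transcribed pseudogene Gm6787 (5.64, 121 bp) and Gm9051 (3.48, 3 bp). The other 3 are pseudogenes, and no lncRNA end on chromosome X had a site that met the rule. The difference between chromosomes was not tested.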

How the results depend on the processing

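The 544 sites became 291 with a window of 0.5 kb, 960 with 2 kb, 204 with scores of at least 10 and 111 without Gm and LOC gene models. The median score, 8.64, became 8.19 with 0.5 kb, 13.9 with scores of at least 10, which follows from that filter, and 8.01 without Gm and LOC models. The share with a score of at least 10, 37.5%, became 32.3% with 0.5 kb. The lncRNA share, 78.3%, became 93.6% without pseudogenes, which follows from leaving them out, and 71.2% without Gm and LOC models, where the pseudogene share became 11.7% and the miRNA share 9.01%. The share of noncoding genes with a site, 2.07%, became 1.10% with 0.5 kb, 3.57% with 2 kb and 0.792% with scores of at least 10. The share of promoter windows with the core, 55%, became 18.3% for GAGGAAGT, 100% for GGAA and 85% for GAGGAA or GGAAGT, the last chosen after seeing the data. A limit of 5 kb to protein-coding gene ends left 452 sites, leaving out pseudogenes 455, and adding chromosome X gave 548, with medians of 8.70, 8.64 and 8.64. The density ratio at lncRNA 5′ ends, 4.88, was 5.71 (3.18 to 9.61) with scores of at least 10, 4.79 (1.86 to 10.4) without Gm and LOC models and 4.31 (3.12 to 5.83) with ends from 1 kb to protein-coding gene ends kept, all chosen after seeing the data. In all, 18 alternative values moved beyond the counting interval of the reported value, or by over 1.5 times for counts, and 34 did not.

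No paired analysis was possible because the list holds no values per library, and no replicate was left out for the same reason. Depth, antibody background and the signal in each group are unknown, and absence from the list is not absence of binding. Promoter sequence covered 60 of 544 sites, all in windows of lncRNA genes.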

Other observations

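Chromosome 12 had the highest share of sites at noncoding gene ends, 44 of 477 (9.22%, 95% Wilson interval 6.94 to 12.2). On the other chromosomes from 1 to 19 the share ran from 3.02% on chromosome 16 to 5.90% on chromosome 4. Per 100 noncoding genes, chromosome 12 had 2.91 member sites, close to chromosomes 19 (2.84), 2 (2.76) and 10 (2.76), and the lowest value was 1.27 on chromosome 7. Chromosome 12 was picked after the shares had been seen, and no test was made.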
